A study of Mus musculus with 15 samples.

Results

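Histone H3 occupancy near gene starts was described here from the 3 tables of selected nucleosome positions that the authors deposited, with a table for each pair of groups of mice. A position belonged to the set when the authors had classed it as ProximalPromoter (up to 250 bp from a gene start) or Promoter1k (up to 1000 bp) and when it lay outside chromosome 1. The rule kept 649 entries at 578 distinct sites, named for 555 genes. They were 241 of the 49408 positions listed for susceptible against control mice, 224 of 17538 for resilient against control mice and 184 of 16273 for resilient against susceptible mice. Outside chromosome 1 the same tables held 16617, 16132 and 14963 positions. The entries are called start positions below.

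Punches came from the nucleus accumbens of C57BL/6 mice, a part of the ventral striatum that weighs reward. Susceptible and resilient mice had both gone through chronic social defeat by CD1 aggressors on 10 days, and a social interaction test parted those that avoided another mouse (susceptible) from those that did not (resilient). Control mice were not defeated. Dissection followed the last defeat by 48 hours, and punches were pooled from 10 mice per replicate, so cell types of the region were mixed, and fewer cells of a type cannot be told apart from lower occupancy per cell. Chromatin was digested with micrococcal nuclease, immunoprecipitated for H3, amplified with 15 PCR cycles and sequenced as 100 bp reads. The labels give 1 H3 sample per group and a single deposited result per pair of groups, so there was no spread between replicates, no test was possible, and depth was unknown. The tables hold no expression values, so the labelled tissue could not be checked against its markers.

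A nucleosome is DNA wrapped around a core of histones that includes H3, and micrococcal nuclease spares the wrapped DNA, so H3-bound fragments report where nucleosomes sit and how often. At active promoters, above all those rich in the dinucleotide CG (CpG islands), nucleosomes are commonly depleted just upstream of the start and regularly spaced downstream of it. Promoters poor in CG and genes silent in a tissue are commonly covered by nucleosomes. Remodelling complexes of the ISWI family, such as ACF with its subunits ACF1 and SNF2H, slide and space nucleosomes, and the study asked how ACF bears on the response to stress.

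Each entry gives a position, the mark Up or Down, a gene, and the signed distance from the gene start, with no size of the change and no read count. Up was read here as more H3 in the group named first, which is an assumption: nothing in the tables says so, and under the other reading each direction below is the opposite.

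The RefSeq promoter windows of 6 start genes, 250 bases before to 50 after the start, show the range of promoters met: Vip, Agt, Pon1 and Olfr1016 had positions in more than 1 table and few or no CG, while Tac1 and Mtor were among the few with many. Coordinates are those of GRCm38.p6, the table's build, not the mm9 of the positions, and the annotated start can differ between the builds. Capitals mark CG dinucleotides, of which there were 4, 1, 3, 0, 22 and 21 in the order printed.
Vip promoter (chr10:5638968-5639267, plus strand): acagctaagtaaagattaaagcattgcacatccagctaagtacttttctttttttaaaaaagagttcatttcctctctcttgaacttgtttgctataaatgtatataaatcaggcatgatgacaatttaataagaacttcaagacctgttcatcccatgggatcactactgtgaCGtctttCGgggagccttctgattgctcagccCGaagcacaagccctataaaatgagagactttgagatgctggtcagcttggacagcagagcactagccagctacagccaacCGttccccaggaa
Agt promoter (chr8:124569657-124569956, minus strand): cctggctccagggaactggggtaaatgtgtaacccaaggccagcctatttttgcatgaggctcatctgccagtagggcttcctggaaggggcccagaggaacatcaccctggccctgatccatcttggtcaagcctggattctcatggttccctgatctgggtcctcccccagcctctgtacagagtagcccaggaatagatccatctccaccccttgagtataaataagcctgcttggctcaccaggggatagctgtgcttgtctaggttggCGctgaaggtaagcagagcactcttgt
Pon1 promoter (chr6:5193897-5194196, minus strand): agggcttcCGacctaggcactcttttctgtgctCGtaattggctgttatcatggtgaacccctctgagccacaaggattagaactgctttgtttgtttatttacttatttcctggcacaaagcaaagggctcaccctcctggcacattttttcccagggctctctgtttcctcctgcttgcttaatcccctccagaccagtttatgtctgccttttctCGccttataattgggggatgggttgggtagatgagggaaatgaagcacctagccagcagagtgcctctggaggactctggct
Olfr1016 promoter (chr2:85800219-85800518, minus strand): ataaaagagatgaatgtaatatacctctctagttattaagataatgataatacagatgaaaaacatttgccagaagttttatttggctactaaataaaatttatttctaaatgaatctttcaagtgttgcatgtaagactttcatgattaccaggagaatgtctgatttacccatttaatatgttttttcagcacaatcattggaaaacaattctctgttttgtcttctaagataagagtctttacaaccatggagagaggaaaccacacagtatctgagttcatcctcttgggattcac
Tac1 promoter (chr6:7554811-7555110, plus strand): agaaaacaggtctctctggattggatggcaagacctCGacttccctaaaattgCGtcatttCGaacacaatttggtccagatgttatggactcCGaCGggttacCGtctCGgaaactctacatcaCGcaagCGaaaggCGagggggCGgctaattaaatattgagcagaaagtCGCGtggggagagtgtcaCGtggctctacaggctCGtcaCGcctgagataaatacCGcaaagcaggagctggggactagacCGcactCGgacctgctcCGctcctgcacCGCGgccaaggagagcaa
Mtor promoter (chr4:148448332-148448631, plus strand): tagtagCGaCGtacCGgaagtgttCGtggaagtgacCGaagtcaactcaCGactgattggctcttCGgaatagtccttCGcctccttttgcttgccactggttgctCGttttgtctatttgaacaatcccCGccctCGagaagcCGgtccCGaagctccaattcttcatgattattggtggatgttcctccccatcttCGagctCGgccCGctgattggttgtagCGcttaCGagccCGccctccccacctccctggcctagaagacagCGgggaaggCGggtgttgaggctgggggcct

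Vip encodes vasoactive intestinal peptide, Agt the angiotensin precursor angiotensinogen, Pon1 the lipoprotein-bound lactonase paraoxonase, and Olfr1016 an olfactory receptor. Tac1 encodes the precursor of substance P, which one class of accumbens projection neurons makes, and Mtor encodes the kinase of the growth-controlling mTOR complexes. The Vip window lies on the plus strand in GRCm38.p6, whereas the deposited tables place Vip on the minus strand of mm9.

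MicroRNAs, short RNAs that pair with messenger RNAs mainly through their seed, were also among the start genes. For 6 of the 9 microRNA genes the mature strand is shown, as RefSeq gives it with GRCm38.p6, and capitals mark the seed (bases 2 to 8). No 2 of these 6 shared a seed.
mmu-miR-155-5p (Mir155): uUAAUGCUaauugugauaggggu
mmu-miR-10a-5p (Mir10a): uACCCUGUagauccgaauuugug
mmu-miR-196a-5p (Mir196a-2): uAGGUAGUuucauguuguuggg
mmu-miR-381-3p (Mir381): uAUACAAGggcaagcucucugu
mmu-miR-329-3p (Mir329): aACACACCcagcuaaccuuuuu
mmu-miR-298-5p (Mir298): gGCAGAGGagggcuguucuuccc

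Down marks outnumbered Up marks at gene starts in all 3 tables. In susceptible against control mice, 92 start positions were Up and 149 Down, so that 38.2% were Up (95% interval 32.0 to 44.6). Of all listed positions outside chromosome 1 in that table, 40.4% were Up and 59.6% Down. For resilient against control mice, 80 were Up and 144 Down, which made 35.7% Up (29.4 to 42.4), beside 38.3% Up and 61.7% Down of all listed positions. For resilient against susceptible mice, 84 were Up and 100 Down, or 45.7% Up (38.3 to 53.1), beside 48.8% Up and 51.2% Down of all listed positions. Each interval for start positions thus included the share of its whole table. Intervals are exact binomial (Clopper-Pearson) ones over positions and cover counting only, not differences between mice. The tables share groups with one another, so their values are given side by side and not as independent results.

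The ProximalPromoter class had 57 positions in susceptible against control mice, of which 23 were Up (40.4%, 27.6 to 54.2). It had 60 in resilient against control mice, of which 16 were Up (26.7%, 16.1 to 39.7), the lowest share among the promoter classes. In resilient against susceptible mice 24 of 48 were Up, with an interval of 35.2 to 64.8%. The Promoter1k class stood at 37.5%, 39.0% and 44.1% Up in the same order of tables. Positions between 1000 and 3000 bp from a start, called the outer promoter here, had 36.8%, 31.5% and 45.9% Up, and gene bodies had 37.6%, 37.2% and 50.3%. The plot of the share of Up by place shows that the intervals of the start positions are wide beside those of gene bodies.

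**Figure D1:**
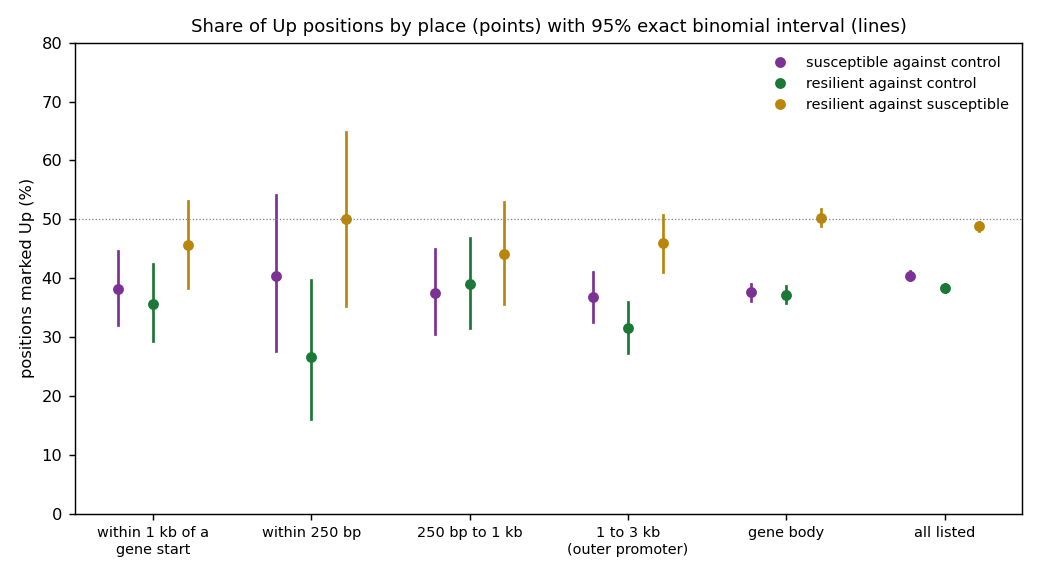
Percentage of positions marked Up (vertical axis) in each class of place (horizontal axis), for the 3 tables (colours); points are shares and lines are 95% exact binomial intervals, which cover counting only. Start positions stood at 38.2%, 35.7% and 45.7% Up, and the intervals of the ProximalPromoter class, with 48 to 60 positions, are the widest.

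Start positions were spread over the whole window and not gathered at the start itself. The ProximalPromoter class held 114, 120 and 96.0 positions per kb of distance (susceptible against control, resilient against control, resilient against susceptible), the Promoter1k class 123, 109 and 90.7, and the outer promoter 128, 116 and 102. The median distance from the start, on either side, was 545.5 bp, 485.5 bp and 539.0 bp. Of the positions in susceptible against control mice, 99 lay upstream and 142 downstream, so that 41.1% were upstream (34.8 to 47.6). In the tables of resilient mice the sides were close to even, with 113 upstream and 111 downstream against control mice, and 94 upstream and 90 downstream against susceptible mice.

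The share of Up per bin was most uneven in resilient against control mice. Between 1000 and 750 bp upstream, 18 of the 27 positions of resilient against control mice were Up (66.7%), while the other 7 bins of 250 bp had between 25.7% and 37.0% Up. Downstream of the start, 30.6% of that table's positions were Up (22.2 to 40.1). The bin at the far upstream end held 42.4% Up in susceptible against control mice and 54.5% in resilient against susceptible mice. The plot of distances shows these bins with the counts of Up and Down. No bin holds more than 40 positions, and the bins were not tested against each other.

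**Figure D2:**
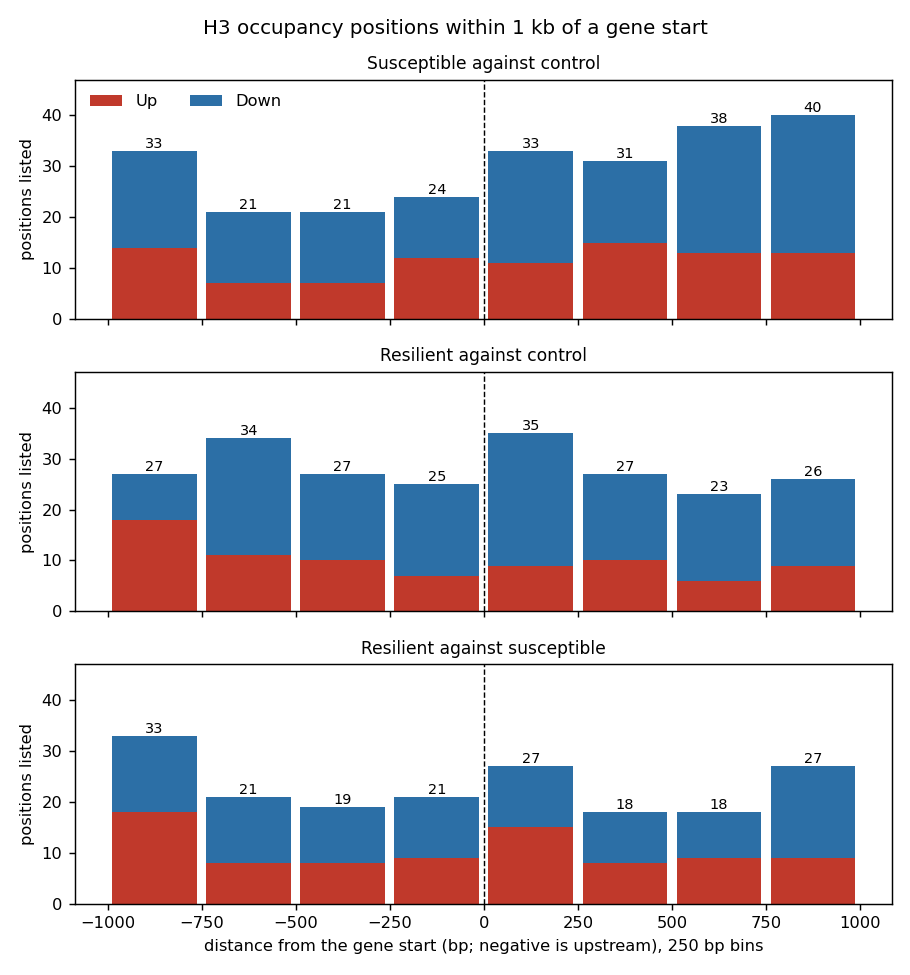
Number of start positions (vertical axis) in bins of 250 bp of distance from the gene start (horizontal axis, negative is upstream), stacked as Up and Down, with 1 panel per table; numbers above the bars are positions. The first bin of resilient against control mice is mostly Up (18 of 27), and the bin just downstream of the start in that table is mostly Down (26 of 35).

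At the edge of the window the authors' classes decided membership. For susceptible against control mice the outermost start positions were those of Plvap (Up, 996.5 bp downstream) and Myl10 (Down, 995.5 bp downstream), and the first positions beyond it those of Chia and Emx1, both Down at 1017.5 bp. For resilient against control mice the outermost was Zfp773 (Down, 994.5 bp) and the first beyond it Slc38a6 (Down, 1007.5 bp). In resilient against susceptible mice they were Nmrk1 (Up, 996.5 bp) and Gramd1c (Down, 1016.5 bp).

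The positions nearest to a start belonged to genes of many kinds. Nearest in susceptible against control mice was that of Vmn2r89, a vomeronasal pheromone receptor gene, Up 14.5 bp upstream. It was followed by Olfr943, an olfactory receptor gene, Up 17.5 bp downstream, and by Slc5a9, a sodium-coupled sugar transporter gene, Down 29.5 bp downstream. The predicted gene Gm21498 (Down, 25.5 bp upstream) and the pseudogene Pisd-ps3 (Down, 32.5 bp downstream) were the others of the nearest 5.

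Nearest in resilient against control mice was the position of Cngb3, a channel subunit of cone photoreceptors, Up 14.5 bp upstream. Ms4a1, the gene of the B cell antigen CD20, was Up 19.5 bp downstream. Cort, the gene of the neuropeptide cortistatin, was Down 21.5 bp upstream, and Zfp616, a zinc finger gene, was Down 20.5 bp downstream. Sfmbt2, a Polycomb group gene, was Down 25.5 bp upstream, at the same distance as Zfp936. Cort is the one neuropeptide gene among these.

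In resilient against susceptible mice, Msmb, which encodes a secreted protein of prostate fluid, was Down 6.5 bp upstream, the shortest distance in the 3 tables. Pcdhga8, a clustered protocadherin gene whose products sort neuronal contacts, was Up 22.5 bp downstream. The pseudogene Pisd-ps1 (Up, 11.5 bp upstream) and the RIKEN transcripts D730050B12Rik (Up, 29.5 bp downstream) and 1700123O12Rik (Up, 32.5 bp upstream) completed the nearest 5. Of these 5 nearest positions, 4 were Up.

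Most genes had a single start position. Of the 555 genes, 470 had 1 position in 1 table and 3 had more than 1 position within a single table only. Sfi1, a centrosomal protein gene with near-identical copies in the genome, had the most. Its positions in susceptible against control mice were Down 84.5 and 284.5 bp downstream and Up 545.5 bp upstream, and in resilient against control mice Down at the same 2 downstream places. Reads of Sfi1, the Pisd pseudogenes, Dux, Rn45s (the ribosomal RNA precursor) and Smok2a (a kinase family of testis) can be shared between copies, so values at these loci are uncertain.

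The other genes with more than 1 position in a table held pairs 250 to 750 bp apart. Olfr1016 was Up at both 33.5 and 743.5 bp downstream in resilient against susceptible mice, and Dux was Down at 121.5 and 441.5 bp downstream in resilient against control mice. In 5 genes a pair carried opposite marks: Gimap8 and Psg23 in susceptible against control mice, Olfr605 in resilient against control mice, and Gm6792 and Smok2a in resilient against susceptible mice. Gimap8, a GTPase gene of lymphocytes, was Up 92.5 bp downstream and Down 390.5 bp upstream, counted from different annotated starts of the gene. The RIKEN transcript 2010109I03Rik had both of its positions Down.

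Pon1 was the only gene with a start position in all 3 tables. It was Down 565.5 bp upstream in susceptible against control mice (chromosome 6, position 5144512 of mm9) and Down at the same position in resilient against control mice. In resilient against susceptible mice it was Down 995.5 bp upstream, at position 5144942. Beyond its start, Pon1 had 1 Up and 1 Down position in its gene body, both in resilient against control mice.

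A further 75 genes had 1 start position in each of 2 tables, and besides Sfi1 another 5 had 3 positions over 2 tables. The map of genes shows 53 of the genes in more than 1 table. Vip was Up 91.5 bp downstream of its start in susceptible against control mice and Up at the same place, position 4707232 of chromosome 10, in resilient against control mice. Agt was Down 95.5 bp downstream in both of these tables, at position 127093512 of chromosome 8. Neither gene had any other listed position in any table. Both tables share the control group.

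Agtr1b, which encodes a receptor for the angiotensin made from Agt, was Down 727.5 bp downstream in susceptible against control mice and Down 832.5 bp upstream in resilient against control mice. Il7r, the interleukin receptor gene of developing lymphocytes, was Down 310.5 bp upstream in both comparisons with control mice. Barhl1, a homeobox gene of hindbrain and inner ear development, was Down 301.5 bp upstream in both. Myh3, the embryonic myosin gene, was Down 280.5 bp downstream and Srl, a calcium-binding protein gene of muscle, Down 61.5 bp downstream in both.

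Other genes were listed in the 2 tables that involve susceptible mice. Ebf2, a transcription factor gene of neural and fat cell development, was Up 556.5 bp upstream in susceptible against control mice and Down at that place in resilient against susceptible mice. Tead4, a factor of the Hippo pathway, was likewise Up and Down 790.5 bp upstream, and Jup, the junction protein plakoglobin, Up and Down 827.5 bp upstream. Oas1g, an interferon-induced gene, was Up and Down 874.5 bp upstream, and Slc36a3, an amino acid transporter gene, Up and Down 133.5 bp upstream. Smarca5-ps, a pseudogene of the gene of SNF2H, was Up and Down 599.5 bp downstream. In these pairs the susceptible mice are the first-named group of one table and the second-named of the other.

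In the 2 tables that involve resilient mice, Ins1, one of the mouse insulin genes, was Up 830.5 bp upstream against control mice and Up at that place against susceptible mice. Gprc5d, an orphan receptor gene, was Up 139.5 bp downstream in both, and Wdfy4, a gene of antigen-presenting cells, Up 310.5 bp downstream in both. Mir710 was Up 836.5 bp downstream in both. A few genes carried opposite marks at different places in the 2 comparisons with control mice: Cts8, a placental cathepsin gene, was Up 507.5 bp downstream in susceptible against control mice and Down 482.5 bp upstream in resilient against control mice, and Psg22, a pregnancy-specific glycoprotein gene, Up 986.5 bp and Down 576.5 bp upstream.

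**Figure D3:**
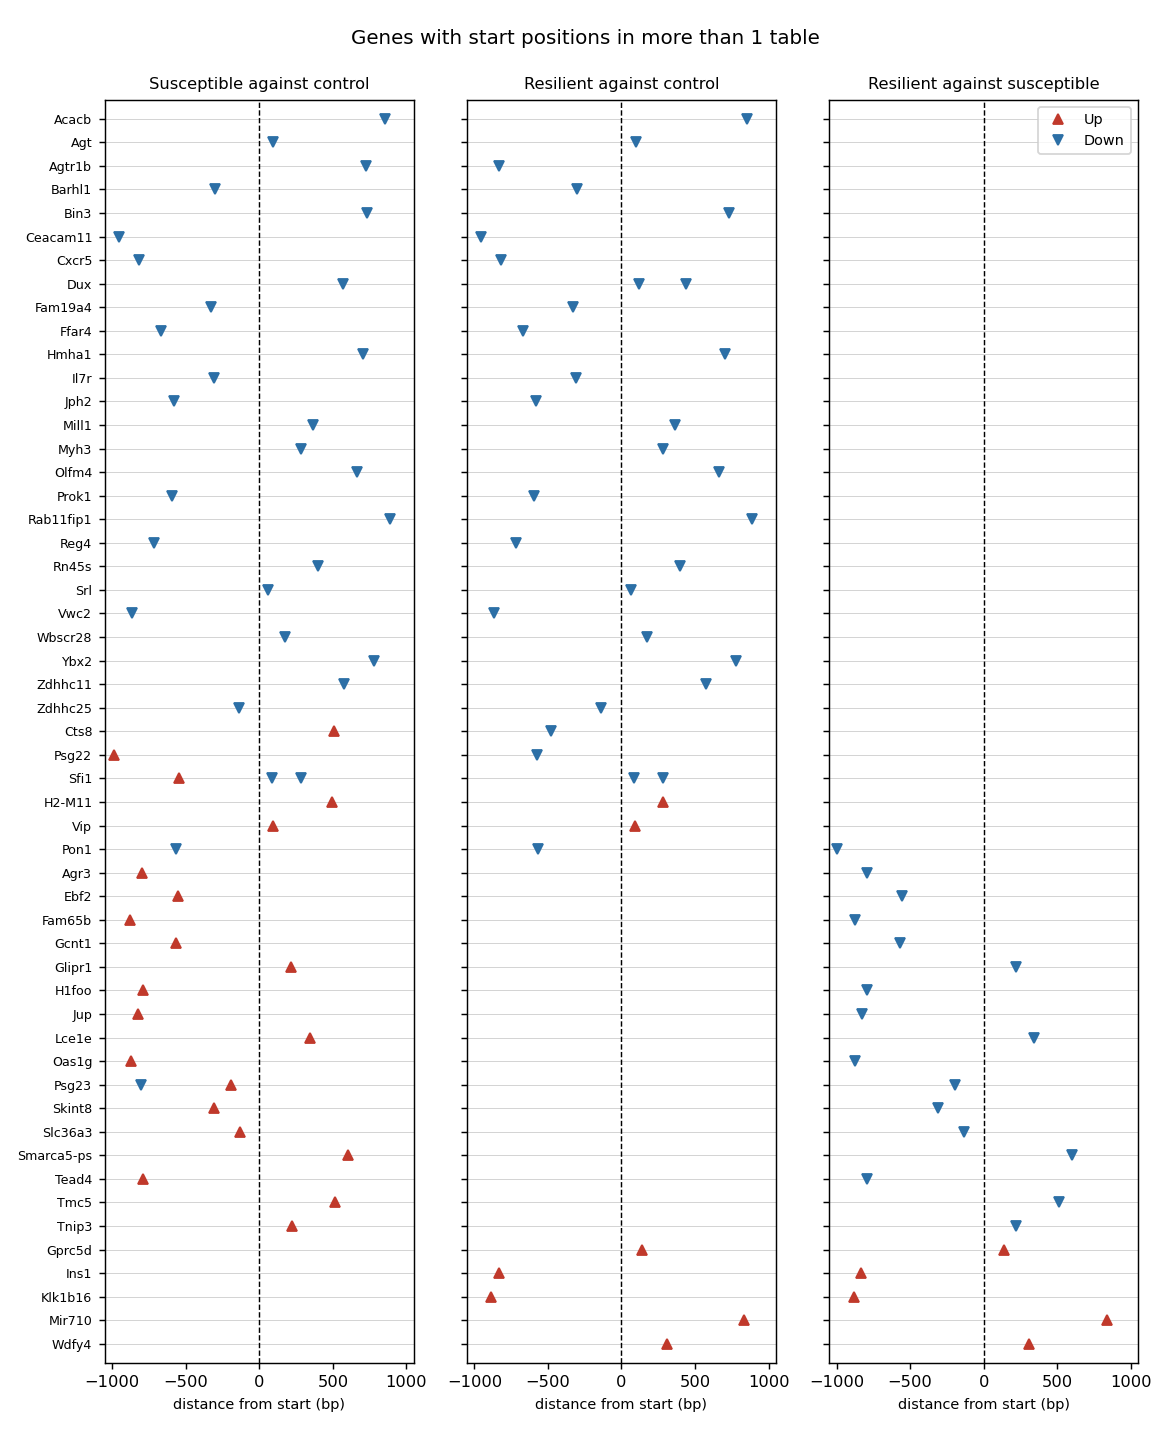
Distance from the gene start in bp (horizontal axis, negative is upstream) of the start positions of 53 genes listed in more than 1 table (rows), with 1 panel per table; triangles pointing up are Up and those pointing down are Down. Olfactory, vomeronasal, predicted and RIKEN genes are not drawn. Rows run from genes marked in both comparisons with control mice (top) to genes marked in both tables of resilient mice (bottom), and Pon1 is the one row with a mark in all 3 panels.

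Genes of ligands and of their receptors were among the start genes. These groups, and those of the paragraphs up to the sensory receptors, were put together after the genes had been seen. Their counts thus describe the set and support nothing further. Down marks were the majority to begin with: 149 of 241 start positions for susceptible against control mice. For resilient mice they were 144 of 224 against controls and 100 of 184 against susceptible mice. Of all listed positions outside chromosome 1, 59.6%, 61.7% and 51.2% were Down, in that order. No group was tested against these shares. Of neuropeptide, hormone and growth factor genes, 5 of 6 positions were Down in susceptible against control mice: Agt, Lif (a cytokine, 548.5 bp upstream), Prok1 (prokineticin, 596.5 bp upstream), Ntf5 (a neurotrophin, 942.5 bp upstream) and Fgf23 (a phosphate-regulating hormone of bone, 812.5 bp downstream). In resilient against control mice 7 of 10 were Down, among them Nps, the gene of the arousal peptide neuropeptide S, 609.5 bp upstream, Pyy, a gut peptide gene, 501.5 bp upstream, and Ins2, 711.5 bp downstream. Tac1 was Down 868.5 bp upstream in that table, while Tac2, the gene of neurokinin B, was Up 311.5 bp upstream. Ins1 was the only such gene in resilient against susceptible mice.

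Of receptor genes outside the sensory families, 6 of 7 positions were Down in susceptible against control mice and 7 of 9 in resilient against control mice, and 1 of 4 was Down in resilient against susceptible mice. Chrnb4, a nicotinic acetylcholine receptor subunit gene, was Down 900.5 bp upstream in susceptible against control mice, and Ednra, an endothelin receptor gene, was the Up member, 779.5 bp downstream. Cckar, a cholecystokinin receptor gene, was Down 628.5 bp upstream and Adrb3, the adrenergic receptor gene of fat, Down 178.5 bp downstream in resilient against control mice. Cxcr5, the homing receptor of B cells, was Down 817.5 bp upstream and Ffar4, a fatty acid receptor gene, Down 666.5 bp upstream in both of these tables. P2rx1, an ATP-gated channel gene, was Up 125.5 bp downstream in resilient against susceptible mice.

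Regulators of development and pluripotency had 10, 6 and 10 positions, with 4, 0 and 6 Up (susceptible against control, resilient against control, resilient against susceptible). Pou5f1, the pluripotency gene of OCT4, was Down 724.5 bp upstream in resilient against control mice, and Zfp42, another marker of stem cells, Down 81.5 bp downstream in susceptible against control mice. Sp9, a zinc finger gene of striatal development, was Down 310.5 bp upstream in susceptible against control mice, and Gsx2, a patterning gene of striatal progenitors, Up 523.5 bp upstream in resilient against susceptible mice. Muscle genes had 7 positions in susceptible against control mice, all Down, among them Atp2a1, the calcium pump of fast muscle (665.5 bp downstream), and Myh6, a cardiac myosin (282.5 bp downstream). They had 6 in resilient against control mice, 5 of them Down, where Musk, a kinase of the neuromuscular junction, was Up 168.5 bp downstream. Immune cell genes had 13, 17 and 16 positions with 4, 8 and 8 Up, and genes of liver enzymes and plasma proteins 16, 9 and 10 with 7, 4 and 2 Up. Cd8a, the coreceptor gene of cytotoxic T cells, was Down 531.5 bp downstream in susceptible against control mice, and F11, a clotting factor gene, Down 166.5 bp upstream in resilient against susceptible mice.

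Epidermal and keratin-associated genes had 10, 5 and 7 positions (4, 3 and 2 Up). Genes of pregnancy and placenta had 10, 6 and 4 (6, 2 and 1 Up), and most of them belong to the clustered Psg and Ceacam families, whose members are alike in sequence, so that reads may be shared between them.

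Of the gene families counted, sensory receptors had the most start positions. Olfactory and vomeronasal receptor genes had 45 start positions in susceptible against control mice (22 Up), which was 18.7% of all start positions. They had 31 in resilient against control mice (15 Up, 13.8%) and 30 in resilient against susceptible mice (15 Up, 16.3%). In the outer promoter the family made up 48 of 511, 48 of 466 and 39 of 410 positions, and among all positions named for a gene 2.34%, 2.13% and 2.14%. The genes of this family with a start position had a median length of 942, 946 and 940 bp, so that a typical one lies wholly within the window. The other start genes had medians of 11797, 12293 and 11637 bp. For the receptor genes the annotated start may be that of the coding sequence, not where transcription begins. In the Olfr1016 window printed above, the bases after the start open with atg, the start codon. Members are close copies of one another and lie in clusters, so reads may be shared between them. Chromosome 7 held 18.7%, 14.7% and 12.5% of start positions beside 8.35%, 7.69% and 8.30% of all listed positions.

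Within this family the marks were nearly even, and single genes showed each pattern. Olfr1016, whose window with no CG is printed above, was Up 743.5 bp downstream in resilient against control mice and Up there against susceptible mice. Olfr665 was Up 879.5 bp downstream in susceptible against control mice and Down 39.5 bp downstream in resilient against control mice. Without the family, the share of Up at starts was 35.7%, 33.7% and 44.8%. Predicted and RIKEN transcripts, most of unknown role, had 37, 48 and 36 positions, with 7, 15 and 19 Up. Their share of start positions was 15.4%, 21.4% and 19.6%, in the same order of tables. They made up 16.4%, 11.8% and 19.3% of the outer promoter, and about 10%, 11% and 12% of all positions named for a gene. Of all start positions, 38.2%, 35.7% and 45.7% were Up. The differences between these shares were not tested.

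**Figure D4:**
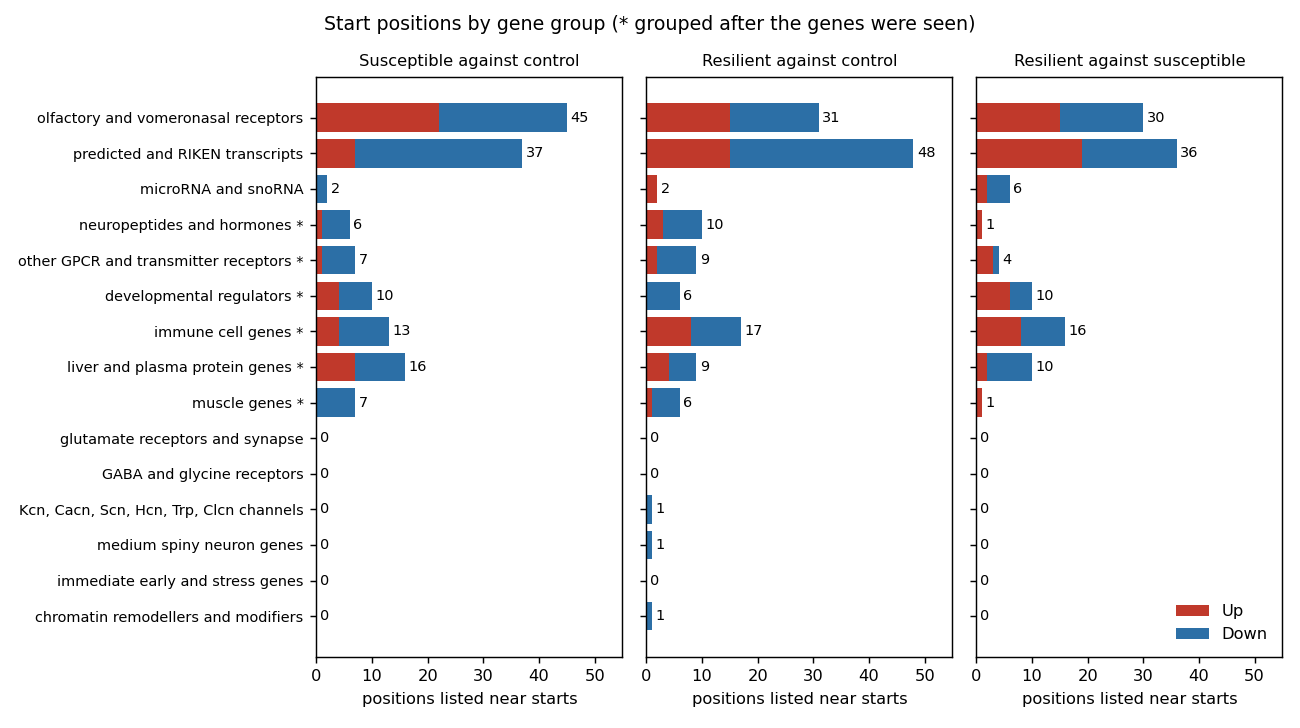
Number of start positions (horizontal axis) per gene group (rows), stacked as Up and Down, with 1 panel per table; groups with an asterisk were put together after the genes were seen. Sensory receptors, predicted and RIKEN transcripts have the longest bars, and lists of synaptic, GABA, immediate early and remodeller genes have 0 or 1 position, where 2.32% of all protein-coding genes have one.

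Lists of genes central to the accumbens and to stress held few start positions, as few genes did. Over the 3 tables, 480 of 20696 RefSeq protein-coding genes outside chromosome 1 had one (2.32%). Of the 180 such genes of the lists for glutamate receptors and synapse, GABA and glycine receptors, medium spiny neurons, immediate early and stress signalling, and chromatin remodellers and modifiers, 2 had one (1.11%), both in resilient against control mice, a count too small to be set apart from that share. They were Tac1 and Smarcd2, a subunit gene of the SWI/SNF remodeller, which was Down 534.5 bp downstream. In gene bodies and elsewhere the glutamate list did have positions, 50, 49 and 64, of which 1 in each table lay in the outer promoter. They were 0.898%, 0.899% and 1.32% of all positions named for a gene, and these shares were not tested.

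Among channel genes named Kcn, Cacn, Scn, Hcn, Trp or Clcn, Trpm5, a channel of taste cells, was Down 45.5 bp downstream in resilient against control mice. The list of histone genes and that of respiratory chain genes had 0 start positions. H1foo, the linker histone gene of oocytes, which is not on the histone list, was Up 794.5 bp upstream in susceptible against control mice and Down there in resilient against susceptible mice. Of the 44 markers of astrocytes, oligodendrocytes, microglia, endothelium and cortical excitatory neurons outside chromosome 1, 2 had a start position. That was 4.55%, beside the 2.32% of all protein-coding genes, and the count is too small to be set apart from that share. Cdh5, the cadherin of endothelium, was Up 397.5 bp downstream in resilient against control mice. Neurod6, a factor of cortical excitatory neurons, was Up 434.5 bp upstream in resilient against susceptible mice. Both genes also had Down positions in the gene body. Cdh5 had 3 there in resilient against control mice and 2 in susceptible against control mice. Neurod6 had 1 in resilient against susceptible mice. A list by name of Hox, Fox, Sox, Pax, Lhx, Dlx, Nkx, Irx and Pou factors had 2, 2 and 1 positions: Hoxb3 and Sox18, then Pou5f1 and Sox5, then Hoxc12. These were 0.83%, 0.893% and 0.543% of start positions, beside 0.719%, 0.734% and 0.783% of all positions named for a gene. All 5 were Down, where Down made up 59.6%, 61.7% and 51.2% of all listed positions. In any class of place the list had 9 of 40, 18 of 40 and 24 of 38 positions Up. Homeobox genes outside that list carried both marks: Barhl1 was Down in the comparisons with control mice, and Gsx2 and Vsx1 were Up in resilient against susceptible mice. Zinc finger genes named Zfp had 2, 3 and 0, solute carriers 2, 1 and 3, and cadherins 1, 3 and 1. For Zfp genes this was 0.83%, 1.34% and 0% of start positions, beside 1.37%, 1.32% and 1.42% of all positions named for a gene. For solute carriers it was 0.83%, 0.446% and 1.63%, beside 2.73%, 2.24% and 2.16%. For cadherins it was 0.415%, 1.34% and 0.543%, beside 0.79%, 0.844% and 0.804%.

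MicroRNA genes had 2 positions in susceptible against control mice, 2 in resilient against control mice and 6 in resilient against susceptible mice. These were 0.83%, 0.893% and 3.26% of start positions. The list of microRNA and small nucleolar RNA genes had 4, 6 and 7 positions in any class. That was 0.0719%, 0.11% and 0.144% of all positions named for a gene. Most positions named for a gene lay in gene bodies, and the annotated hairpins are short, so these shares do not compare like with like. In the outer promoter the list had 2, 1 and 0 positions (0.391%, 0.215% and 0% of that class). Mir155, known for its induction in activated immune cells, was Down 622.5 bp upstream in resilient against susceptible mice. In the same table Mir10a was Down 243.5 bp downstream and Mir196a-2 Down 48.5 bp upstream, both of which lie within Hox gene clusters. Mir329 was Up 181.5 bp downstream in that table, and Mir381, which lies in the same imprinted cluster on chromosome 12, was Down 599.5 bp upstream in susceptible against control mice. Mir298 was Up 365.5 bp upstream in resilient against control mice. Of the remaining genes, Mir680-3 was Down 572.5 bp upstream in susceptible against control mice and Mir1899 Down 543.5 bp upstream in resilient against susceptible mice. The start here is that of the annotated hairpin, which for most microRNAs is not where transcription begins.

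Start genes with a RefSeq promoter window were mostly poor in CG. A window was called CpG-rich when the CG count was at least 0.6 of that expected from its C and G and its GC content at least 50%. Among protein-coding start genes outside chromosome 18, 11 of 148 windows were CpG-rich in resilient against control mice (7.43%, 3.77 to 12.9) and 14 of 126 in resilient against susceptible mice (11.1%, 6.21 to 17.9). Of all RefSeq protein-coding genes outside chromosomes 1 and 18, 48.2% had a CpG-rich window. The share in resilient against control mice was 29.6% for genes with a position in the outer promoter and 55.8% for those with one in the gene body. Windows were at hand for 148 of 185 and 126 of 150 such start genes of these tables. For susceptible against control mice the share with a window was 75.4%, under the 80% set as a minimum, so the check is void there.

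The few CpG-rich start genes included regulators. Those named here were picked after they were seen. In susceptible against control mice, where the share is void, 16 genes had a CpG-rich window. Of these, Ebf3, a neural transcription factor gene, Sp9, Stat5b, a cytokine-signalling factor gene, and Nkd2, a Wnt pathway gene, were Down. Mtor was Up 841.5 bp downstream. In resilient against control mice Tac1, Fezf1, a forebrain patterning gene, and Sfmbt2 were Down, while Hk1, the brain hexokinase gene, and Abcg2, a drug efflux transporter gene, were Up. The plot of CpG content shows that the start genes crowd at the CG-poor end, where all genes form 2 broad humps. Sensory receptor genes were part of these sets; without them the share was 14.1% (7.95 to 22.6) in resilient against susceptible mice, and the check was void, at 78.7% with a window, in resilient against control mice.

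**Figure D5:**
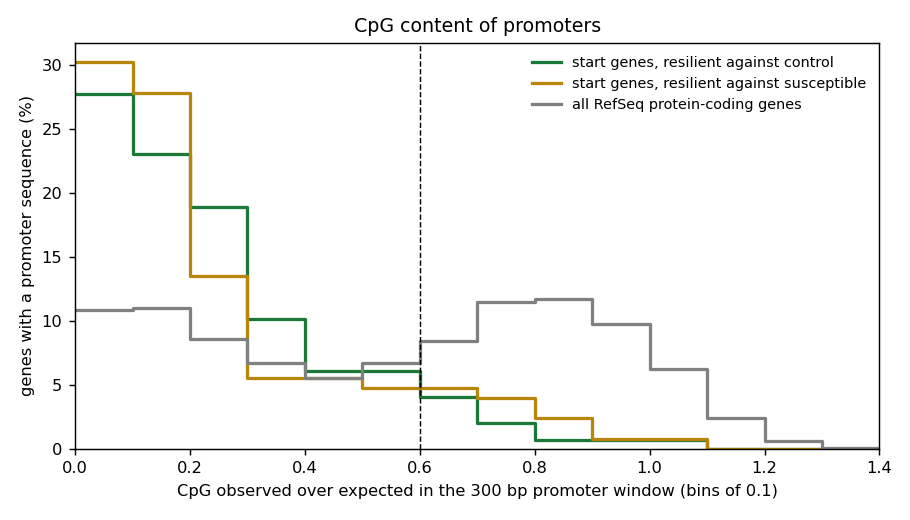
Percentage of genes (vertical axis) by CpG observed over expected in the RefSeq window (horizontal axis, bins of 0.1), for protein-coding start genes of the 2 tables of resilient mice and for all RefSeq protein-coding genes; the dashed line marks 0.6, and a window also needed at least 50% GC to be called CpG-rich. In the lowest bin stand 27.7% of start genes for resilient against control mice, 30.2% for resilient against susceptible mice and 10.8% of all genes.

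Few start positions lay near the minority state of the authors' ACF1 segmentations, which the files do not name as bound or unbound. Within 1000 bp of such a segment of susceptible mice were 7 start positions in susceptible against control mice (2.90%, beside 1.64% of all listed positions). There were 10 in resilient against control mice (4.46%, beside 1.64%) and 4 in resilient against susceptible mice (2.17%, beside 1.76%). The 95% intervals were 1.18 to 5.89, 2.16 to 8.06 and 0.595 to 5.47, in the same order, and the share was not tested. The segments of resilient and of control mice did not all give the same order. In resilient against susceptible mice 1.09% of start positions lay within 1000 bp of a resilient segment, beside 1.29% of all listed positions, and 1.09% within that distance of a control segment, beside 1.33%. For susceptible against control mice both shares were 2.49%, beside 1.20% and 1.31%. For resilient against control mice they were 3.57% and 3.12%, beside 1.11% and 1.21%.

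Most of the positions near susceptible segments were at loci with near-identical copies. In susceptible against control mice they were the 3 of Sfi1 and 1 each of Pisd-ps3, Dux, Rn45s and Gm21498. Of the 10 in resilient against control mice, 6 belonged to Sfi1, Dux, Rn45s and Pisd-ps2, all Down. The others there were Zfp936 and Gm21276, which were Down, and Abcg2 and 3830403N18Rik, which were Up. In resilient against susceptible mice they were Pisd-ps1, Vmn2r102 and 2 positions of Smok2a.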

How the data were processed

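The 3 deposited H3 occupancy tables hold positions in bp that the authors had selected, each marked Up or Down, and signed distances from gene starts as the authors gave them. Per the submitters' processing notes, the build was mm9 and the software included CASAVA 1.8.2. The aligner and the callers of H3 positions and ACF1 segments were not given in the sources used here. The pair of groups behind a table was taken from the table's deposited name, in that order. No table gives the size of a change, a p-value, a read count or the positions tested and not selected, so counts and shares could only be described. The labels tell of replicates, which the tables do not separate. The SNF2H and input samples were not analysed here.

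Positions were taken 1-based, gene bounds as the tables give them. They lie on a grid of 10 bp. Chromosome 1 was left out by the rule for the members. Genes were matched to RefSeq by identifier (552 of 555), and promoter and microRNA sequences came from RefSeq with GRCm38.p6, with none from chromosome 18. Genes named are those with the most positions or nearest to a start in each table, those in all 3 tables, and list members with a start position. The others, and the gene groups so described, were chosen after their values were seen. The members and all lists were chosen with earlier results of these data known. Counting was checked on simulated tables. The tools were Python 3.11.15 with scipy 1.17.1, pandas 2.3.3, matplotlib 3.10.9 and numpy 2.4.6. 1 item among the start genes is not reported here.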

Additional observations from a re-analysis of the deposited data

Results flagged for a closer look

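Chromosome 1, left out above, held 313 positions near gene starts in susceptible against control mice, of which 6 were Up. It held 14 in resilient against control mice (4 Up) and 12 in resilient against susceptible mice (7 Up). Of all 49408 positions listed for susceptible against control mice, 16617 lay outside chromosome 1, so most lay on it. The share of Up over the whole of chromosome 1 is not given here, so the 6 of 313 cannot be read as particular to gene starts. Separate tables of nucleosome shifts, which no comparison above uses, also held shifts near gene starts outside chromosome 1, each of 60 to 80 bp. There were 18 of 579 shifts for susceptible against control mice (3.11%) and 8 of 545 for resilient against control mice (1.47%). For resilient against susceptible mice there were 5 of 511 (0.978%). Of occupancy positions, 1.45%, 1.39% and 1.23% lay near starts, in the same order, and the shares were not tested. At Sfi1, a shift of 70 bp was listed at the very position, 84.5 bp downstream, that was Down in both comparisons with control mice. The gene Tlr4, an innate immune receptor, had a shift of -80 bp at 687.5 bp downstream of its start in susceptible against control mice, and Nxph1, a neurexin ligand gene, one of -70 bp at 973.5 bp downstream.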

How the results depend on the processing

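Of 101 alternatives computed, 95 left the value where it was, by the criterion of 1.5 times for counts and of the 95% interval for shares. With chromosome 1 included, susceptible against control mice had 554 start positions in 488 genes, with 17.7% Up. The same inclusion did not move the values of the other tables so far. With ProximalPromoter positions alone, 26.7% were Up in resilient against control mice. With a CpG minimum of 0.75, chosen for protein-coding genes after seeing the data, 2.03% of the start genes of resilient against control mice and 5.56% of those of resilient against susceptible mice were CpG-rich. A higher minimum can only lower such a share. For all RefSeq protein-coding genes outside chromosomes 1 and 18 it went from 48.2% at 0.6 to 35.3% at 0.75. The cause of the other differences was not tested. Leaving out loci of near-identical copies, or the sensory receptor genes, both added after seeing the data, gave 38.7% and 35.7% Up for susceptible against control mice. The planned CpG alternative over all start genes was not run, because 73.7% of them had a promoter window. No paired analysis was possible because each pair of groups had 1 deposited result and each group 1 H3 sample. Depth is unknown, and a position absent from a table may be unselected, uncovered or unmappable.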
